A study of Mus musculus with 9 samples.

Results

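Immunoglobulin variable (V) segments of the heavy chain (Ighv), the kappa light chain (Igkv) and the lambda light chain (Iglv) were read in the submandibular glands (SMGs) of mice that lack 2 heparan sulfate 3-O-sulfotransferases. The members were chosen from the measured totals, as the V segments with at least 50 raw counts summed over 9 libraries. They number 101 of the 147 V segments in the normalized table and of 48733 rows in the raw count table, with 48 Ighv, 51 Igkv and 2 Iglv segments. Just inside the minimum lay Ighv6-6 and Igkv4-63 with 50 counts each and Ighv1-72 with 51, and just outside it lay Igkv6-20, Ighv1-7 and Ighv10-3 with 46 each. The members held 91.0% to 99.4% of the reads on all V segments of a library.

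The mice were adult males, 4 wild-type (WT) littermates and 5 double knockouts (DKO) of Hs3st3a1 and Hs3st3b1. In the DKO, zinc finger nucleases had left frameshift deletions in exon 1 of Hs3st3a1 in embryos heterozygous for an Hs3st3b1 allele with a LacZ cassette, and mice with both changes on one chromosome were bred to homozygosity, on a C57BL/6 background. Both alterations are germline and so are present in every cell of the body, and which of the founder lines these mice came from is not given in the sources used here. Each mouse gave 1 unstranded library, and the exact ages are not given.

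A V segment is a germline piece of an antibody gene. In a developing B cell, a chosen V segment is joined to a (D and) J segment, and it encodes most of the domain that touches antigen. A B cell usually expresses 1 heavy and 1 light chain rearrangement, and its daughters carry the same choice, so the mix of V segments in RNA follows the clones present and how much antibody RNA each makes. Salivary glands hold antibody-secreting cells (plasma cells and plasmablasts) that make IgA for export into saliva. In RNA from a whole gland, fewer cells of a type and less RNA per cell cannot be told apart.

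Total counts ran from 17053747 to 37870519 per library. Of the deleted genes, Hs3st3a1 was read 3 to 14 times per WT library and in no DKO library, and Hs3st3b1 had 67 to 216 counts in WT and 7 to 45 in DKO. Levels are given as CPM, counts relative to the size of the library, with that size scaled by TMM (a factor that balances the bulk of the genes between libraries). The salivary epithelium list (Mucl2, Egf, Aqp5, Krt14, Epcam) summed to 121109 to 179293 CPM in WT and 177698 to 286230 in DKO. This sum is mostly Mucl2, with means of 145769 CPM in WT and 227553 in DKO. The mean of Aqp5 was also higher in DKO (263 CPM in WT and 372 in DKO). Means were lower in DKO for Egf (6237 and 1656 CPM), Krt14 (38.9 and 23.9) and Epcam (173 and 152). Of 12 B cell genes, 8 stayed under 10 counts in every library, with Pax5 at 0 throughout and Ms4a1 (the surface protein CD20) at 0 in 8 libraries and 2 counts in DKO_1. The T cell list summed to 2.46 to 4.31 CPM in WT and 1.60 to 7.21 in DKO, and the list of lymph node stroma and homing genes to 0.726 to 1.74 and 0.943 to 2.02.

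All 101 members matched GENCODE M21 (GRCm38) by identifier and name. The Ighv members span chr12:113588267-116000461, the Igkv members chr6:67609713-70704177 and the Iglv members chr16:19085017-19260859. Of the annotated functional segments, 47 of 115 Ighv, 51 of 100 Igkv and 2 of 3 Iglv were members, and 1 member, Ighv1-2, is annotated as a pseudogene. The exons of a member add up to 347 to 425 bases, so that reads and reads per base rank the segments of a library in much the same order, and the leading Ighv and Igkv segment of every library was the same by either measure.

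The segments that led their locus in at least 1 library are shown by the end of their coding sequence in GENCODE M21, because this is the stretch that the join to a D or J segment extends. The last 60 bases are given 5′ to 3′ on the coding strand, with the codon of the conserved second cysteine in capitals. This codon opens the junction that makes up the third complementarity-determining region. The 8 Ighv leaders were the following.
Ighv5-17 (chr12:113859149-113859208, minus strand): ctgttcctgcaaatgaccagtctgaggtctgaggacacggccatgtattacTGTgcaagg
Ighv5-9-1 (chr12:113736111-113736170, minus strand): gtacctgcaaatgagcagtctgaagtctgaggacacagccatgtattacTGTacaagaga
Ighv2-2 (chr12:113588267-113588326, minus strand): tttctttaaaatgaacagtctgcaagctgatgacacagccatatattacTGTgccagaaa
Ighv1-66 (chr12:115593110-115593169, minus strand): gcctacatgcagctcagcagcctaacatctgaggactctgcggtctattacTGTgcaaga
Ighv6-3 (chr12:114391712-114391771, minus strand): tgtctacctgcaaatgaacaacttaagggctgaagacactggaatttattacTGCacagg
Ighv3-6 (chr12:114288157-114288216, minus strand): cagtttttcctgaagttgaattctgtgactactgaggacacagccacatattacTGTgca
Ighv5-16 (chr12:113838526-113838585, minus strand): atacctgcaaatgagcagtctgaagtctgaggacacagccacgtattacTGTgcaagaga
Ighv1-26 (chr12:114788372-114788431, minus strand): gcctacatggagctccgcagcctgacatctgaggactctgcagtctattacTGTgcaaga

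In the Igkv leaders the cysteine codon lies farther from the end, since a kappa segment itself encodes most of that region.
Igkv12-44 (chr6:69814631-69814690, minus strand): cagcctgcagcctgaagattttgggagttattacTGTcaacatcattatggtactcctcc
Igkv6-25 (chr6:70215898-70215957, plus strand): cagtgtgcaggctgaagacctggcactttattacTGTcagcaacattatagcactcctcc
Igkv6-23 (chr6:70260409-70260468, minus strand): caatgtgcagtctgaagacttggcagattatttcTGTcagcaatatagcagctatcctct
Igkv4-91 (chr6:68768555-68768614, minus strand): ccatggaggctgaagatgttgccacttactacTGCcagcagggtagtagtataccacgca
Igkv8-30 (chr6:70117061-70117120, minus strand): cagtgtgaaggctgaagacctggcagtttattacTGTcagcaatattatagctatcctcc
Igkv12-46 (chr6:69764523-69764582, minus strand): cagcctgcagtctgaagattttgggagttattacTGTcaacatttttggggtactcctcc
Igkv4-61 (chr6:69416895-69416954, minus strand): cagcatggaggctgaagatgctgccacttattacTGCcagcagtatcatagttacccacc
Igkv6-15 (chr6:70406469-70406528, minus strand): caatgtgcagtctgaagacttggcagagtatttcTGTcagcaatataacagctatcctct
Igkv9-120 (chr6:68050397-68050456, plus strand): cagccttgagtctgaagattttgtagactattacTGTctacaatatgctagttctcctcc

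Many V segments are near-copies of each other. The most similar other V segment was identical to a member at a median of 95.5% of aligned bases, and 60 of the 100 members with coding sequence had a relative at 95% or more. For 37 of them that relative was also a member. The counting tool and its handling of reads that fit several places are not given in the sources used here, so the split of reads between such relatives is uncertain. The lambda pair Iglv1 and Iglv2 is shown as the pair with the most reads, with the 8 bases that differ over 300 bases in capitals.
Iglv1 (chr16:19085017-19085316, minus strand): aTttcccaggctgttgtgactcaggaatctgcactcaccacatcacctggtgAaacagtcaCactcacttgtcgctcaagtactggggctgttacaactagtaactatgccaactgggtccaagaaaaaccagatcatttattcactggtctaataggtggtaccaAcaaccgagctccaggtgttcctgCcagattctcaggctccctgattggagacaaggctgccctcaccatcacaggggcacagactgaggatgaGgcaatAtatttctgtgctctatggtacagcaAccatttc
Iglv2 (chr16:19260401-19260700, minus strand): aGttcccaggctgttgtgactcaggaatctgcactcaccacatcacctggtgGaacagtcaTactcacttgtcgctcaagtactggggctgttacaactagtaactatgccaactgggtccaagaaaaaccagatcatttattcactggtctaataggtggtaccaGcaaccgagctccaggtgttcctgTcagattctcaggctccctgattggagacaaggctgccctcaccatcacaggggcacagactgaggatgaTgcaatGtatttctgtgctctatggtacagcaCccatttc

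A second pair, Ighv1-52 and Ighv1-61, is shown because its members were read in different libraries. Only 4 of the 300 bases shown differ, again in capitals.
Ighv1-52 (chr12:115145487-115145786, minus strand): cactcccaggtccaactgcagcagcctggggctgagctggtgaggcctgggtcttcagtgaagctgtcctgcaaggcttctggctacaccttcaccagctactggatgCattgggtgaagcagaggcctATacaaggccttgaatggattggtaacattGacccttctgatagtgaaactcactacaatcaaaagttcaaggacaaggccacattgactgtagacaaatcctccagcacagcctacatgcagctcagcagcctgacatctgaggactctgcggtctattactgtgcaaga
Ighv1-61 (chr12:115359140-115359439, minus strand): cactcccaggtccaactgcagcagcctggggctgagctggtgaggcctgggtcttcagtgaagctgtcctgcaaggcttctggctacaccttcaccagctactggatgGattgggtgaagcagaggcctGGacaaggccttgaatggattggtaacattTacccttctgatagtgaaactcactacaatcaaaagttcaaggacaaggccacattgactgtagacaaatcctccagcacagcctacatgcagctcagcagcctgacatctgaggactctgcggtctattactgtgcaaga

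Ighv1-61 had 79 of its 80 reads in WT_4 and 1 in WT_3. Ighv1-52 had 0 reads in WT_4, 41 in DKO_1, 29 in DKO_4 and at most 3 in any other library. Relatives at 98.7% identity were thus counted apart, in libraries that did not overlap at more than 3 reads.

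The sum of all members differed widely between mice of the same genotype, and a difference between genotypes was not tested. It was 55.9, 87.5, 179 and 193 CPM in WT_1 to WT_4 and 233, 13.0, 90.1, 231 and 70.5 CPM in DKO_1 to DKO_5. The highest and the lowest library were both DKO, and the groups overlapped. The group means were 129 ± 67.6 CPM (SD, n = 4) for WT and 128 ± 99.6 CPM (SD, n = 5) for DKO. Their log2 ratio was -0.01, a ratio of arithmetic means, in which the highest libraries weigh most. The medians were 133 CPM in WT and 90.1 CPM in DKO. Between the libraries of a genotype, the log2 values of single libraries had a spread (SD) of 1.40. The lowest library, DKO_2, had 317 V reads against 972 to 8097 in the others, and without it the log2 ratio was 0.28.

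**Figure D1:**
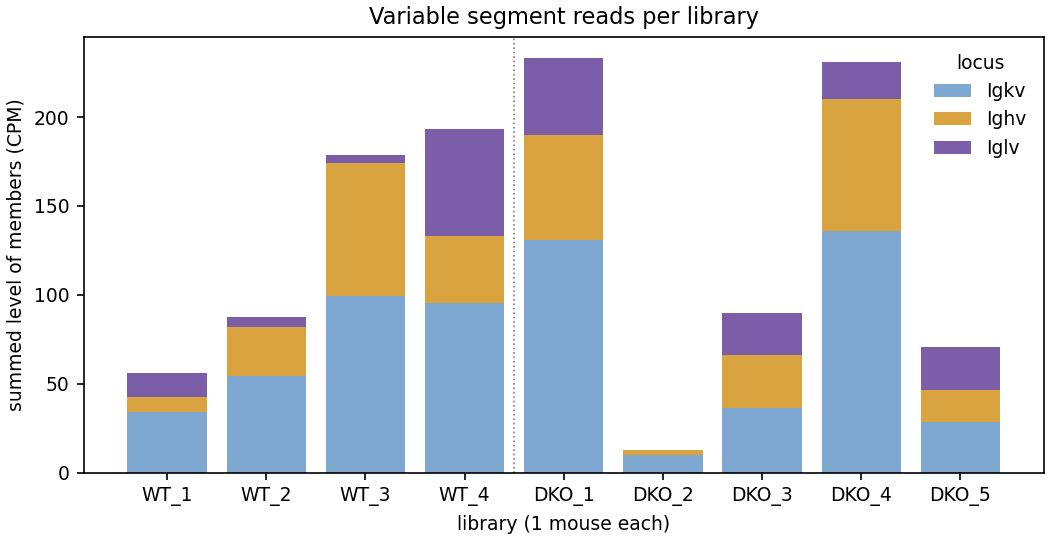
Summed level of the members in CPM (y axis) in each of the 9 libraries (x axis), stacked by locus. WT libraries lie between 55.9 and 193 CPM and DKO libraries between 13.0 and 233 CPM, so that the WT range falls inside the DKO range.

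By locus, Igkv segments took the most V reads in every library, with 40.5% to 78.5%. Igkv summed to 71.0 ± 31.7 CPM (SD, n = 4) for WT and 68.5 ± 60.1 (SD, n = 5) for DKO, Ighv to 36.8 ± 27.9 and 36.6 ± 29.5, and Iglv to 21.1 ± 26.4 and 22.6 ± 15.4. In none of the loci did the genotypes separate.

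The constant regions of antibodies, which the choice of members did not use, had the same libraries at both ends. They lie in the same RNAs as the V segments, so their levels are not an independent measure. Igha, the IgA heavy chain, was at 60.1, 137, 298 and 218 CPM in WT and 308, 18.6, 111, 336 and 103 CPM in DKO. Igkc, the kappa constant region, was at 62.3, 111, 179 and 175 CPM in WT and 230.4, 18.6, 65.8, 255 and 58.3 CPM in DKO. Jchain, the protein that links IgA monomers, was at 59.5, 67.6, 152 and 130.3 CPM in WT and 175, 10.8, 42.3, 189 and 50.1 CPM in DKO. For each of the 3 genes, as for the members, DKO_2 was the lowest library and DKO_1 and DKO_4 were the 2 highest. Ratios of member reads to the summed constant regions stayed between 0.280 (DKO_2) and 0.402 (DKO_3), while the sums themselves spread 17.9-fold for the members and 13.6-fold for the constant regions. These ratios averaged 0.357 ± 0.0255 (SD, n = 4) for WT and 0.354 ± 0.0463 (SD, n = 5) for DKO.

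Of the heavy chain constant region level, Igha held 78.7% to 95.3% in WT and 69.5% to 95.7% in DKO. The lowest shares belonged to WT_1 and DKO_2, the libraries with the fewest Ighv reads (182 and 62). Ighm, the IgM heavy chain, varied less than Igha, with 9.02 to 15.6 CPM in WT and 5.32 to 12.3 in DKO.

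The leading Ighv and Igkv segments mostly differed between glands. Among heavy chain segments, Ighv5-17 led in WT_1 with 26.9% of the Ighv reads (95% Wilson interval 21 to 33.8), Ighv5-9-1 in WT_2 with 19.8% (17.02 to 22.9) and Ighv2-2 in WT_3 with 15.7% (14.5 to 16.9). In WT_4 the leader was Ighv1-66 with 23.9% (21.1 to 26.8). Ighv6-3 led in 2 DKO libraries, with 14.6% (13.1 to 16.2) in DKO_1 and 32.1% (28.7 to 35.8) in DKO_3. The other DKO leaders were Ighv3-6 in DKO_2 with 19.4% (11.4 to 30.9), Ighv5-16 in DKO_4 with 16.2% (14.6 to 17.9) and Ighv1-26 in DKO_5 with 35.8% (30.0 to 41.9). Thus 8 segments led in 9 libraries. The intervals cover counting error only, since reads copied by PCR are not independent molecules.

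No Igkv segment led in more than 1 library. In WT_1 to WT_4 these were Igkv12-44 with 29.4% of the Igkv reads (26.3 to 32.7), Igkv6-25 with 9.67% (8.24 to 11.3), Igkv6-23 with 14.6% (13.6 to 15.7) and Igkv4-91 with 24.0% (22.3 to 25.8). In DKO_1 to DKO_5 they were Igkv8-30 with 20.1% (18.9 to 21.3), Igkv12-46 with 19.3% (14.9 to 24.6), Igkv4-61 with 47.7% (44.3 to 51.2), Igkv6-15 with 22.2% (20.8 to 23.6) and Igkv9-120 with 21.6% (17.8 to 25.9). Igkv4-61 in DKO_3 was the most dominant segment of either locus in any library.

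**Figure D2:**
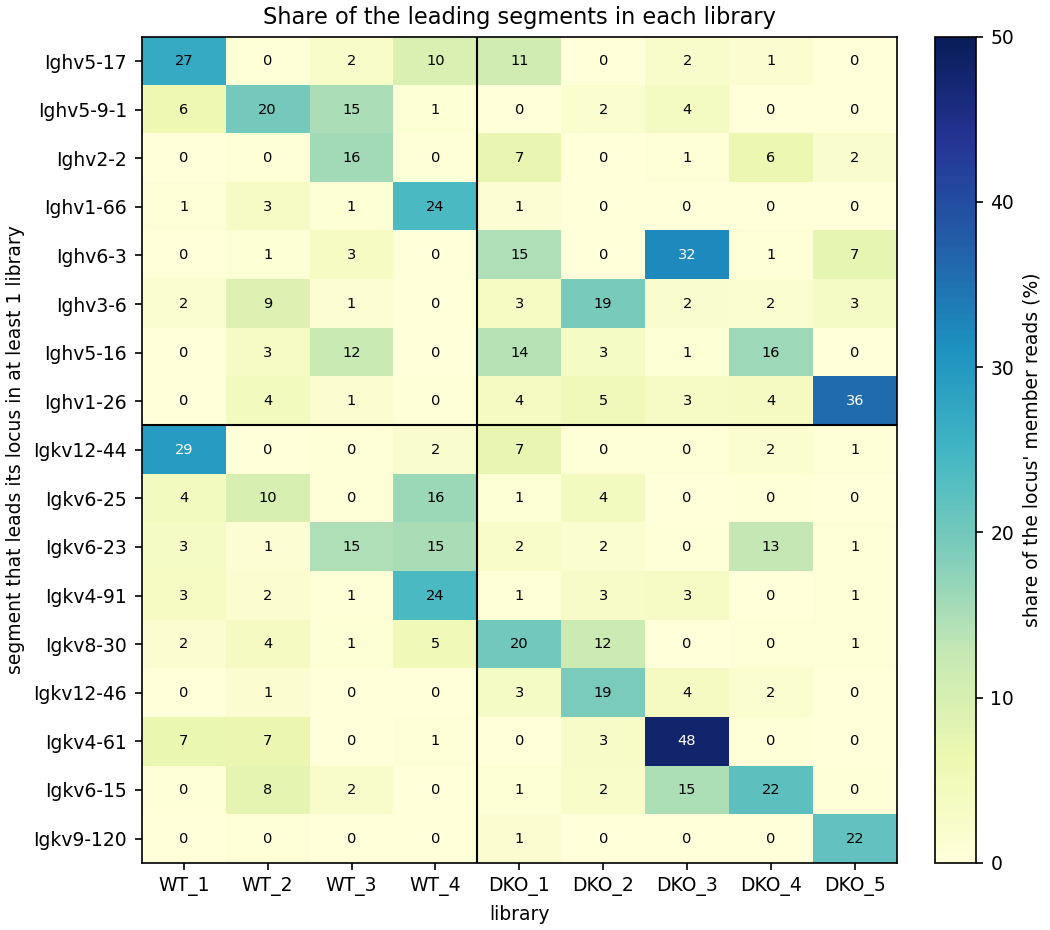
Share of the Ighv or Igkv member reads of a library (color and printed percent, rounded to whole numbers) for each segment that led its locus in at least 1 of the 9 libraries (rows), with WT to the left of the line and DKO to the right. High shares stand in different rows in different libraries, with the highest at 47.7% for Igkv4-61 in DKO_3.

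A segment that led in one gland was often near the floor in the next. Igkv9-120 had 85 reads in DKO_5 and 58 in DKO_1 but at most 6 in any other library. Igkv4-61 was at 17.5 CPM in DKO_3 and between 0 and 3.56 CPM elsewhere, and Igkv8-30 at 26.3 CPM in DKO_1 and between 0.0458 and 5.02 CPM elsewhere. By contrast Ighv5-16, the Ighv segment with the most reads (1022), was shared by WT_3, DKO_1 and DKO_4 with 408, 280 and 305 reads, and had at most 21 in each of the other 6. A count of 0 allows up to 3 reads, which is 0.0663 to 0.218 CPM depending on the library, or up to 4.84% of the 62 Ighv reads of DKO_2.

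Diversity was summarised as the effective number of segments, the exponential of the Shannon entropy, which is the number of equally used segments that would give the same evenness. For Ighv it was 12.3, 17.6, 15.4 and 12.1 in WT_1 to WT_4 and 19.3, 14.6, 8.89, 20.02 and 8.53 in DKO_1 to DKO_5. For Igkv it was 12.6, 23.7, 20.7 and 11.1 in WT and 26.1, 15.4, 7.45, 16.9 and 14.3 in DKO. In both loci the DKO libraries reached above and below all WT libraries. The means were 14.3 ± 2.65 and 14.3 ± 5.49 for Ighv, and 17.05 ± 6.13 and 16.0 ± 6.70 for Igkv, in WT (SD, n = 4) and DKO (SD, n = 5), so the genotypes differed by less than the spread between libraries. DKO_3 combined a low number in both loci with 77.2% of Ighv and 76.5% of Igkv reads on 5 segments each.

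**Figure D3:**
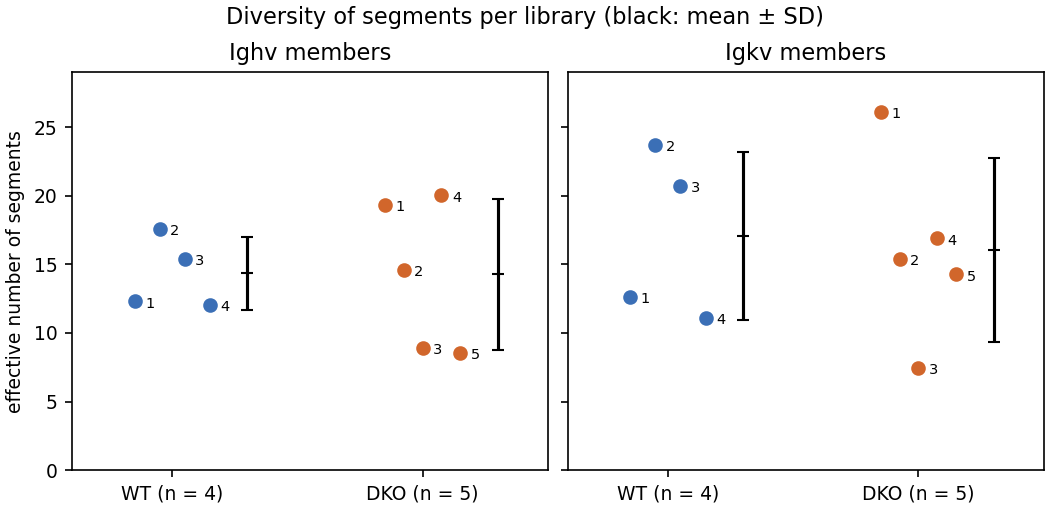
Effective number of Ighv (left) and Igkv (right) segments (y axis) in each WT and DKO library (points, labelled with the replicate number), with the group mean and SD in black. For Igkv the DKO libraries run from 7.45 to 26.1 and the WT libraries from 11.1 to 23.7.

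The number of members with at least 5 counts ran from 17 in DKO_2, the library with the fewest V reads, to 80 in DKO_1 (31 to 69 in WT). It did not follow the V reads throughout, as WT_4 had 42 such members from 4505 reads and WT_2 had 57 from 2289. At a common number of reads, the expected number of segments seen in 62 Ighv reads was 14.7 to 19.6 in WT and 13.8 to 20.8 in DKO. In 249 Igkv reads it was 21.6 to 34.2 in WT and 20.4 to 39.2 in DKO. DKO_2, with the fewest reads of all, had 20 Ighv and 30 Igkv segments on this scale, inside the range of the other libraries.

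The overlap of 2 libraries was measured as the sum, over segments, of the smaller of their 2 shares, which is 100% for identical use. For Ighv the median was 23.9% within WT (6 pairs), 23.9% within DKO (10 pairs) and 23.2% between genotypes (20 pairs). For Igkv the medians were 28.7%, 25.2% and 28.6%. The extremes were 7.46% for Ighv between WT_4 and DKO_2 and 46.8% for Igkv between WT_3 and DKO_4, both across genotypes. A pair of libraries shared at most 2 of its 5 leading segments in either locus. Pairs share libraries, so these values are a description and were not tested.

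Grouped by family (the number before the hyphen, which stands for sequence relatedness), Ighv1 with 25 members took 28.0% to 62.9% of the Ighv reads, and Ighv5 with 6 members 2.44% to 41.2%. In the median library Ighv5 had 31.4% in WT and 17.4% in DKO, with DKO_1, DKO_3 and DKO_4 (26.0%, 17.4% and 25.1%) inside the WT range of 13.1% to 41.2%. Among kappa families, Igkv4 took 4.04% to 56.9%, Igkv6 8.81% to 37.1% and Igkv12 1.64% to 44.7%. The highest Igkv4 share was that of DKO_3, which Igkv4-61 led, and the highest Igkv12 share that of WT_1, where Igkv12-44 and Igkv12-38 were the 2 leading segments.

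By position, the 39 functional Ighv segments nearest to the J segments included 14 members with 44.4% of all Ighv reads, the middle 38 included 13 with 28.3%, and the 38 farthest included 20 with 26.7%. In single libraries the nearest group held between 16.1% and 57.8%. The 34 functional Igkv segments nearest to the J segments included 19 members with 44.5% of the Igkv reads, between 25.6% and 54.1% in single libraries. Members thus came from the whole length of both loci.

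Lambda segments had a wider range between glands than the other loci, 244-fold against 29.2-fold for Ighv and 13.2-fold for Igkv. The low end of each range is DKO_2, which had 6 Iglv reads (0.247 CPM). In the other libraries Iglv ran from 4.95 to 60.3 CPM, Ighv from 8.12 to 74.5 and Igkv from 28.6 to 136. Iglv1 was the segment with the most reads of all members (4762) and led all V segments in WT_1, WT_2, WT_4, DKO_1, DKO_3 and DKO_5. It was at 13.3, 5.66, 4.82 and 57.1 CPM in WT_1 to WT_4 and 41.1, 0.247, 23.9, 20.5 and 23.1 CPM in DKO_1 to DKO_5. The groups overlapped, and the means were 20.2 ± 24.9 CPM (SD, n = 4) for WT and 21.8 ± 14.5 (SD, n = 5) for DKO. By edgeR's quasi-likelihood test the log2 fold change of DKO over WT was 0.12 ± 0.89 (SE), with a Benjamini-Hochberg adjusted p of 0.972, and the sign turned when WT_1, WT_2, WT_3 or DKO_1 was left out. Iglv2 was low throughout, with 74 reads in WT_4, 89 in DKO_1, 14 in DKO_5 and 0 to 8 in the others.

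The lambda share of light chain V reads was 27.9%, 9.45%, 4.74% and 38.6% in WT_1 to WT_4 and 25.0%, 2.35%, 39.4%, 13.3% and 45.7% in DKO_1 to DKO_5. Among light chain constant region reads (Igkc, Iglc1, Iglc2 and Iglc3), the lambda share was 25.4%, 6.22%, 3.08% and 33.8% in WT and 21.3%, 5.43%, 37.4%, 9.48% and 36.9% in DKO. A V segment and its constant region are parts of the same RNA, so these shares are not independent of those by V segment. Libraries that were lambda-rich by their V segments were thus lambda-rich by their constant regions. The V share was the higher of the 2 in 8 of 9 libraries. DKO_2, with 6 lambda V reads, was the exception, and its intervals overlapped (1.08 to 5.04 and 3.73 to 7.83).

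**Figure D4:**
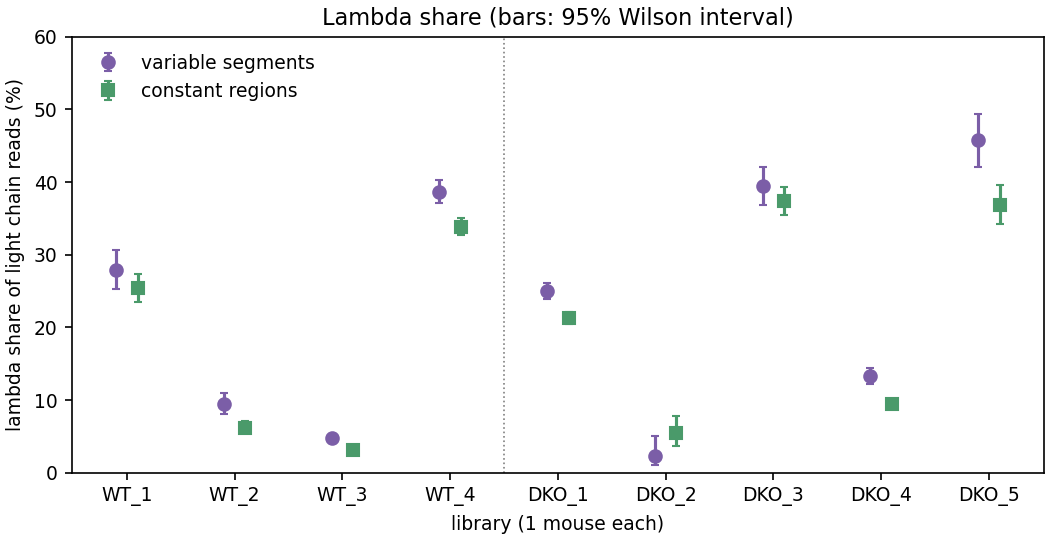
Lambda share of light chain reads in percent (y axis) in each library (x axis), for V segments (circles) and constant regions (squares), with 95% Wilson intervals. Shares by V segment run from 2.35% in DKO_2 to 45.7% in DKO_5, and the constant regions of a library lie close to its V segments.

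The members whose pattern was most like Iglv1 over the 9 libraries, by Spearman's rho of log2(CPM + 1), were Ighv2-6-8 (0.71), Iglv2 (0.64), Ighv8-11 (0.63), Igkv8-24 (0.61) and Ighv2-9-1 (0.58). These are the 5 highest of 100 values over libraries that differ in V read depth.

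Few segments were shared by all glands. With at least 5 counts in each of the 9 libraries there were 2 members, Iglv1 and Igkv10-96. With at least 1 count there were 7, the others being Igkv4-68, Igkv4-91, Igkv5-43, Igkv6-23 and Igkv8-30, and none of the 7 was an Ighv segment. Igkv10-96 was at 0.402, 3.21, 9.06 and 0.944 CPM in WT and 7.94, 0.329, 0.687, 11.5 and 1.52 CPM in DKO. Igkv5-43 followed with 1.79, 2.10, 10.5 and 1.03 CPM in WT and 1.76, 0.123, 1.19, 6.96 and 1.16 CPM in DKO, and its 3 counts in DKO_2 kept it out of the first group. The median member reached 5 counts in 4 libraries (4 for Ighv, 5 for Igkv).

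At the other end, 19 members (12 Ighv, 7 Igkv) had at least 80% of their summed CPM in 1 library. There were 6 in DKO_1, 4 in WT_3, 3 in WT_4, 3 in DKO_4, 2 in WT_2, 1 in DKO_3 and 0 in WT_1, DKO_2 and DKO_5, whose member reads were the fewest of the 9 (317 to 1252). In WT_4 these segments took 18.2% of the V reads. For the median member, 56.5% of the summed CPM came from 1 library, and 60 members had at least 50% there.

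The restricted segment with the highest level was Igkv4-91, with 535 reads in WT_4 and 1 to 28 elsewhere. Igkv17-127 had 226 reads in DKO_4 and at most 15 elsewhere, and Ighv1-66 had 208 in WT_4 and at most 29. WT_3 alone held most reads of Ighv1-19 (348 of 378), Ighv5-4 (311 of 345) and Igkv6-13 (214 of 227). Igkv6-13 is 96.2% identical to Igkv6-23, which led the same library. Ighv2-9-1 had 180 of 199 reads in DKO_1, Igkv3-2 had 129 of 165 in WT_2, Ighv7-3 had 119 of 143 in DKO_4 and Ighv9-4 had 96 of 101 in DKO_4. Ighv1-19 is 96.0% identical to Ighv1-26, the leader of DKO_5, where Ighv1-19 had 0 reads.

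A total of 12 members stayed at or under 3 counts in every library of one genotype, 9 in WT and 3 in DKO. These 12 reached the minimum of 50 counts only through the other genotype. Their numbers and the bounds below thus follow in part from the choice of members and are not a test of genotype. Against a floor of 3 counts per library, Ighv9-4 was at least 6.84-fold higher in DKO and Igkv11-125 at least 6.62-fold, while Ighv1-61 was at least 6.23-fold lower in DKO. For Ighv9-4 and Ighv1-61 this came from 1 library each. Igkv11-125 had 76, 22 and 6 reads in DKO_1, DKO_3 and DKO_5 and 1 read in all WT libraries together. The pseudogene Ighv1-2 had 59 reads in DKO_1 and 0 in every other library.

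For DKO against WT, all genes were fitted with edgeR's quasi-likelihood test, and 38 members (11 Ighv, 26 Igkv and Iglv1) passed its filter on low counts. After Benjamini-Hochberg adjustment over 13842 genes, 0 of the 38 passed 0.05, where 0.629% of all genes did. At an unadjusted p under 0.05 there were 7 (2 higher and 5 lower in DKO), beside 14.5% of all genes. DESeq2's Wald test and limma-voom also called 0 members (4.45% and 1.07% of all genes called), with 2 and 5 at an unadjusted p under 0.05, and DESeq2 gave a p for 36 of the 38. No member had groups whose CPM did not overlap, which was so for 6.0% of the genes tested. The median log2 fold change of the 38 was -0.16, with 17 above 0 and 21 below, and that of all genes was 0.01. In some fits without 1 library the members' median was above 0. It was 0.31 without WT_4 (58 members tested), 0.21 without WT_3 (47), 0.11 without DKO_2 (37) and 0.08 without DKO_3 (37). Both the libraries and the set of members tested differ between these fits, and their parts were not separated.

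The spread within a genotype was large for these segments. The SD of log2(CPM + 1) between libraries of a genotype had a median of 0.999 over the 38 tested members and 0.21 over all genes tested. The standard error of the log2 fold change had a median of 1.11 for the members and 0.18 for all genes.

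The 5 most negative log2 fold changes belonged to segments that were prominent in 1 or 2 WT glands. Ighv5-9-1 was at 0.491, 5.39, 11.1 and 0.343 CPM in WT and 0.0879, 0.0411, 1.05, 0.0395 and 0 CPM in DKO. WT_2 and WT_3 stood high, and DKO_3 lay above WT_1 and WT_4. Its log2 fold change was -4.17 ± 1.12 (SE), with an adjusted p of 0.0992 by edgeR, the lowest of any member.

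Igkv6-25 was at 1.38, 5.28, 0.199 and 15.7 CPM in WT and 1.17, 0.411, 0, 0.316 and 0 CPM in DKO (log2 fold change -3.66 ± 1.07 SE, adjusted p = 0.129 by edgeR). Here WT_2 and WT_4 were high, and WT_3 lay below 3 of the DKO libraries; without WT_4 the log2 fold change was -2.40. Ighv1-66 was at 0.0446, 0.841, 0.641 and 8.93 CPM in WT and 0.586, 0, 0, 0 and 0 CPM in DKO (-4.05 ± 1.299, adjusted p = 0.169). Igkv4-91 was at 1.21, 0.841, 0.508 and 23.0 CPM in WT and 0.820, 0.288, 1.10, 0.0395 and 0.145 CPM in DKO (-3.64 ± 1.14, adjusted p = 0.158). Both were high in WT_4 only, and without WT_4 their log2 fold changes were -1.80 and -0.75. Igkv12-38, highest in WT_1 with 4.78 CPM and at 0 in 4 DKO libraries, had -3.39 ± 1.25 (adjusted p = 0.233), and -2.16 without WT_1.

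Of the 5 most positive log2 fold changes, the highest was that of Igkv12-46. It was at 0, 0.688, 0 and 0.172 CPM in WT and 4.34, 1.97, 1.37, 2.21 and 0 CPM in DKO, with 4 DKO libraries above every WT library and DKO_5 at 0 (log2 fold change 3.31 ± 1.04 SE, adjusted p = 0.161 by edgeR). Igkv4-59 was at 0.0893, 0.726, 0 and 0.0429 CPM in WT and 0.732, 0, 1.65, 3.79 and 1.31 CPM in DKO (2.85 ± 1.12, adjusted p = 0.261). In this segment DKO_2 was at 0 and the other DKO libraries lay above all WT libraries, DKO_1 only just. Without WT_2, the WT library highest in both, the log2 fold changes of Igkv12-46 and Igkv4-59 were 5.32 and 5.25.

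Ighv6-3 was at 0, 0.229, 2.52 and 0 CPM in WT and 8.55, 0, 9.49, 0.553 and 1.31 CPM in DKO (2.35 ± 1.27, adjusted p = 0.438 by edgeR), and its log2 fold change was 5.53 without WT_3. Igkv6-15 was at 0.134, 4.13, 2.17 and 0 CPM in WT and 1.08, 0.247, 5.41, 30.1 and 0.0725 CPM in DKO (2.17 ± 1.33, adjusted p = 0.514). DKO_4 carried most of the latter, and without it the log2 fold change was 0.07. Ighv1-26, highest in DKO_5 with 6.38 CPM and between 0 and 1.15 CPM in WT, had 1.96 ± 0.92 (adjusted p = 0.360).

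**Figure D5:**
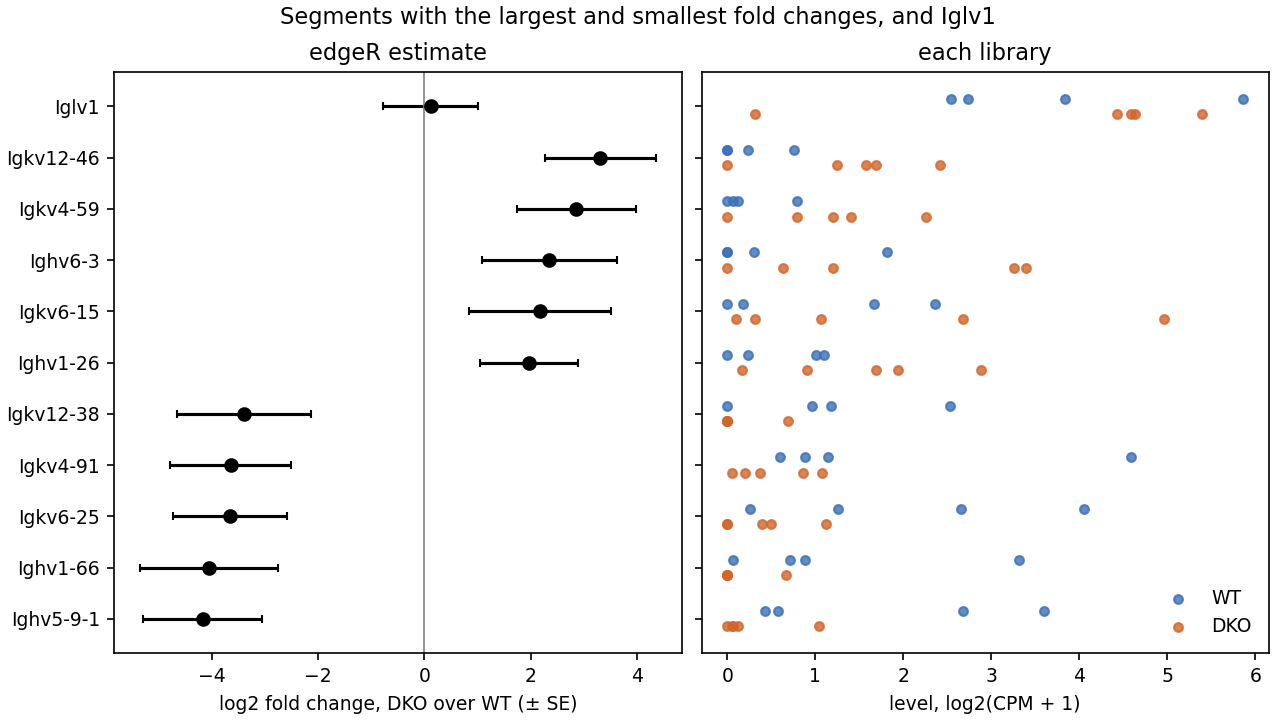
Left, log2 fold change of DKO over WT with its standard error for the 5 largest and 5 smallest values among the 38 tested members and for Iglv1. Right, the level of the same segments as log2(CPM + 1) in each WT and DKO library (points). The point clouds of the genotypes overlap in every row, and the segments lower in DKO each have 1 or 2 WT libraries far to the right.

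When the filter on low counts was left out, all 101 members entered the edgeR fit and 3 passed the adjusted 0.05, where 1.31% of 26391 genes did. Ighv5-9-1 (adjusted p = 0.0265) and Igkv6-25 (0.0403) were lower in DKO, and Igkv11-125 (0.0415) was higher. Igkv11-125 became a member only through its DKO reads. Ighv5-9-1 became a member only through its WT reads, with 3, 1, 23, 1 and 0 reads in DKO_1 to DKO_5. The calls of Igkv11-125 and Ighv5-9-1 are thus not independent of the choice of members. At an unadjusted p under 0.05 there were 41 of 101, beside 10.2% of all genes in that fit. These shares are not like for like, since the fit kept every gene with any count and the members had at least 50. With the filter the numbers were 7 of 38 beside 14.5% of all genes. The members' median log2 fold change without the filter was 0.37, also with the 12 members at the floor in one genotype set to their bound.

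The genes that mark antibody-secreting cells and antibodies showed no call either. Of 15 genes of antibody-secreting cells, 10 were tested and 0 passed the adjusted 0.05 by edgeR or DESeq2, with 2 at an unadjusted p under 0.05 by edgeR. Several of these, such as Xbp1, Derl3 and Fkbp11, serve secretion in general and are also expressed by gland epithelium. Among the more specific ones, Jchain had a log2 fold change of -0.13 ± 0.64 (SE), with an adjusted p of 0.956 by edgeR, and Mzb1, a chaperone of plasma cells, had 1 to 28 reads per library and was not tested. Of 12 constant region genes 7 were tested and 0 called, with Igha at -0.02 ± 0.65 (adjusted p = 0.993 by edgeR) and Igkc at -0.07 ± 0.61 (adjusted p = 0.978). The B cell, T cell, lymph node and salivary epithelium lists had 2 of 12, 1 of 10, 2 of 7 and 5 of 5 genes tested and 0 called by edgeR, and 0, 0, 1 and 3 of these were at an unadjusted p under 0.05. DESeq2 called 3 of the epithelium genes (Mucl2, Egf and Krt14; 1 higher and 2 lower in DKO) and 0 of the other lists, and limma-voom called 0 in every list; the part of the epithelium in the V segment levels was not tested.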

How the data were processed

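RNA of 9 SMGs was sequenced (HiSeq2500, 1 unstranded Nextera XT library per mouse). The submitters' processing notes name STAR 2.5.2a, DESeq2, edgeR and limma; the counting tool is not given in the sources used here. The authors deposited raw read counts on 48733 rows, the same counts for 17562 rows, and TMM-normalized signal values of these, in CPM units. Each of the 158058 signal values gave back a whole count (100.0%, tolerance 0.001 counts), and the count test on these recovered reads called the same number of genes, 87, as on the raw counts.

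The raw counts were fitted in R 4.3.3 with edgeR 4.0.16 (TMM, filterByExpr with minimum count 10 and minimum total 15, quasi-likelihood test, genotype as the single term), with Benjamini-Hochberg adjustment over 13842 genes. DESeq2 1.42.0 and limma 3.58.1 (voom with quality weights) were alternatives. The test was tried on simulated data with known changes. Standard errors were taken as the size of the log2 fold change over the root of edgeR's F statistic. CPM values use edgeR's effective library sizes. A member with no more than 3 counts in any library of a genotype has a bound and no fitted fold. Sequences and gene models come from GENCODE M21 (GRCm38). Total counts of 17053747 to 37870519 and 317 to 8097 V reads per library limit the precision.

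The members and the lists were chosen with earlier results of these data known, so no p is given for a sum or a diversity over the members. Segments named are the leaders per locus and library, the 5 largest and 5 smallest fold changes, the 10 restricted segments with the highest CPM, the 5 with the highest minimum CPM, the Iglv members and those next to the minimum of 50. Ighv1-52, Ighv1-61, Ighv1-2, Igkv11-125 and Igkv4-68 were named after their values were seen. The female libraries were not analysed here.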

Additional observations from a re-analysis of the deposited data

Results flagged for a closer look

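In a group of 4 or 5 libraries, a value is listed here when its gap to the nearest other library is above Dixon's 95% critical value for the group's range. This was looked for in 56 groups of values and found in 18, where chance alone gives about 1 in 20 groups. Segments were partly named because 1 library held most of their reads, so many of the 18 repeat that choice.

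In WT_4 the Iglv total stood apart at 60.3 CPM (nearest WT library 13.3), through Iglv1 at 57.1 CPM and Iglv2 at 3.18 CPM (nearest 0.133). In the same library Ighv1-66 was at 8.93 CPM (nearest 0.841) and Igkv4-91 at 23.0 CPM (nearest 1.21). In WT_3 Ighv6-3 was at 2.52 CPM (nearest 0.229) and Igkv5-43 at 10.5 CPM (nearest 2.10), and in WT_2 Igkv4-59 was at 0.726 CPM (nearest 0.0893).

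Among DKO libraries, the Igkv leader of DKO_3 held 47.7% of the Igkv reads, where the next leader held 22.2%, and Ighv5-9-1 was at 1.05 CPM in DKO_3 (nearest 0.0879). In DKO_4 Igkv6-15 was at 30.1 CPM (nearest 5.41), Igkv6-23 at 17.3 CPM (nearest 3.11) and Igkv5-43 at 6.96 CPM (nearest 1.76). In DKO_1 Igkv8-30 was at 26.3 CPM (nearest 1.19), and Ighv1-66 at 0.586 CPM and Igkv12-38 at 0.615 CPM were the only values above 0 of their group.

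The share of Igha among heavy chain constant regions was low in WT_1 at 78.7% (nearest 93.0%) and in DKO_2 at 69.5% (nearest 91.9%). These 2 libraries had the fewest Ighv reads of the 9 (182 and 62).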

How the results depend on the processing

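Of 263 recomputed values, 249 kept their direction and their side of the threshold or moved by less than the spread between libraries. Under edgeR with no filter on low counts, 3 members passed the adjusted threshold in place of 0 and the median log2 fold change of the members was 0.37, with all 101 members tested in place of 38. Ighv5-9-1 (-4.20) and Igkv6-25 (-3.66), tested in both, passed only in that fit, and the cause was not tested. The log2 fold change of Iglv1 turned to -0.90 with limma-voom and ran from -0.26 to 1.47 without 1 library. Shared segments numbered 7 at 1 count, 0 at 10 counts and 1 after scaling to the smallest library, and restricted segments 60 at 50% and 8 at 90%. Without 1 library, 0 members were called in each of the 9 fits, the log2 ratio of V totals ran from -0.35 to 0.28, the difference in effective number from -1.51 to 1.36 for Ighv and from -3.55 to 1.20 for Igkv, the shared segments from 2 to 3 and the restricted from 19 to 23. The number of genes called among all genes ran from 0 to 441 in these fits and was 616 with DESeq2, against 87.

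Replicate numbers 1 to 4 occur in both genotypes. The deviations of same-numbered libraries correlated at 0.15, 0.30, 0.07 and 0.01, and a library correlated best with its own number for 2 of the 4. With so few numbers this neither shows nor excludes a pairing, so the block was kept as an alternative only. With the replicate block (DKO_5 left out) 0 members were called and the median log2 fold change was -0.45. The same 8 libraries without the block gave 0 and -0.03, and the block called 0 of 13847 genes. The 5 settings added after seeing the data were the recovered counts, the 8 libraries without the block (for 2 results), the block for the V total (log2 ratio -0.35) and the alternative fits of the antibody-secreting cell and B cell lists, in which 0 genes were called. Depth limits what can be seen of single segments in DKO_2, with 62 Ighv and 249 Igkv reads.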
